A study of Mus musculus with 15 samples.

Results

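Regulators and subunits of pyruvate dehydrogenase were followed through pregnancy in the mouse liver, as a set of 10 genes. It holds the kinase genes Pdk1, Pdk2, Pdk3 and Pdk4, the phosphatase genes Pdp1 and Pdp2 with the phosphatase regulatory subunit gene Pdpr, and the enzyme subunit genes Pdha1, Pdhb and Dlat. They were taken by name from the 21702 genes of the count table, and all 10 were present and passed the filter on low counts. The question put to them was whether the late-pregnancy rise was particular to Pdk4. All mice were wild-type C57BL/6N females, 8 to 14 weeks old and virgin at the start, and every mouse had received an AAV8 vector by tail vein, in mated mice at least 1 week before mating. AAV8-p21 carries p21, a cyclin-dependent kinase inhibitor, under the liver-specific thyroxine-binding globulin promoter, and AAV8-null is the vector without it. Livers were collected from non-pregnant (NP), 8 days post-coitum (8 dpc) and 16 dpc mice with AAV8-null and from 8 dpc and 16 dpc mice with AAV8-p21, with 3 mice in each of the 5 groups. There was no NP group with AAV8-p21.

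Pyruvate dehydrogenase is the mitochondrial enzyme complex that turns pyruvate into acetyl-CoA, a step that animal cells cannot reverse. The kinases phosphorylate the complex and switch it off, which spares pyruvate for gluconeogenesis or lactate, and the phosphatases remove the phosphate and switch it on. In liver, Pdk2 is the kinase also expressed in the fed state, and Pdk4 is known for its induction in fasting, by fatty acids through PPAR-alpha and by glucocorticoids and FOXO1, with insulin lowering it.

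The 10 genes lie on 8 chromosomes of GRCm38 (mm10). Pdk4 (ENSMUSG00000019577) is at chr6:5483351-5496309 on the minus strand and Pdk2 (ENSMUSG00000038967) at chr11:95026258-95041354 on the minus strand. The RefSeq promoter table on GRCm38.p6, which covers 250 bases before and 50 after each start, held 9 of the 10 genes, all but Pdp1. The bases upstream of the annotated starts of Pdk4 and Pdk2 are shown because these were the members that moved in opposite directions in late pregnancy, and a 30-base window from Pdp2 and Pdpr because they hold the same motif as Pdk2. Each is written 5′ to 3′ on the strand of its gene. Capitals mark CACGTG, the E-box bound by the clock factors CLOCK and BMAL1 among others.
Pdk4, chr6:5496310-5496528, minus strand: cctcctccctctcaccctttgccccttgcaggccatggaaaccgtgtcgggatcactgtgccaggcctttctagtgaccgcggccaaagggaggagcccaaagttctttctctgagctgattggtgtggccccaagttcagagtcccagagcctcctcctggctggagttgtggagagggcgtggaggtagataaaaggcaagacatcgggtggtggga
Pdk2, chr11:95041372-95041621, minus strand: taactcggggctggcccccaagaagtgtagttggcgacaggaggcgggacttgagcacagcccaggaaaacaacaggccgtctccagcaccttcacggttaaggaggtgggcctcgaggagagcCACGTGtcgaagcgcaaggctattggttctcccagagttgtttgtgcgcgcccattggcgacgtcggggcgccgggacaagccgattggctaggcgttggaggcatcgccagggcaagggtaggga
Pdp2, chr8:104591241-104591270, plus strand: ggggaagagcccCACGTGacgacctactgg
Pdpr, chr8:111094561-111094590, plus strand: cccaaacaagcgCACGTGcgggccggtccg

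Letters of 4 motifs were searched on both strands of these promoters. CACGTG was in 3 of the 9 promoters, those of Pdk2, Pdp2 and Pdpr, and in 7.15% of all 32851 promoters of the table. AGGTCA, a nuclear receptor site such as PPAR-alpha uses, TGTTTAC, a forkhead site, and the glucocorticoid response element (AGAACA and TGTTCT with 3 bases between them) were in 0 of the 9, against 16.3%, 3.65% and 0.00913% of all promoters. No match overlapped a match of another motif. A match describes letters in a short window and says nothing of binding, and sites of these factors further away were not searched.

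Total counts lay between 12280709 and 17615185 per library. Levels are given as CPM, the usual scaling of counts, here to the TMM-normalized library size. TMM scaling takes most genes as the reference, so that a few very abundant RNAs do not pull the others down. Its factors lay between 0.682 and 0.839 in the 6 livers at 16 dpc and between 1.10 and 1.25 in the other 9, and albumin RNA took more of the reads at 16 dpc. The summed CPM of 6 hepatocyte markers was 93795 to 111371 in NP livers and 310125 to 435181 in AAV8-null livers at 16 dpc. Most of that sum was 1 gene, which reached 408470 CPM. From NP to 16 dpc with AAV8-null, 4 of the 6 markers were higher. In edgeR's test 2 rose and 1 fell, beside 3.71% and 2.82% of all genes. In whole liver, fewer cells of a type and less RNA per cell cannot be told apart. Cdkn1a, the gene of p21, lay between 3.29 and 127 CPM in the 9 AAV8-null livers and between 347 and 1664 CPM in the 6 AAV8-p21 livers.

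In late pregnancy Pdk4 rose and Pdk2 fell, and none of the other 8 members passed the test. Between NP and 16 dpc with AAV8-null, 6.52% of the 12172 genes tested passed an adjusted p-value under 0.05 in edgeR's quasi-likelihood test, 3.71% higher and 2.82% lower, and of the 10 members 1 rose and 1 fell. The members' median log2 fold change was −0.11, beside −0.03 over all genes tested.

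Pdk4 stood at 34.4, 21.8 and 52.4 CPM in the 3 NP livers. With AAV8-null the 8 dpc livers had 36.0, 15.7 and 14.6 CPM, and the 16 dpc livers 159, 1222 and 109.7 CPM. All 3 livers at 16 dpc were above every other liver of the study, and against NP 12.1% of all genes were higher without overlap. They differed among themselves by 11.1-fold. The log2 fold change from NP to 16 dpc was 3.78 ± 0.79 (SE, n = 3 against 3), a rise of 13.7-fold (adjusted p = 0.0113, edgeR). The size rested on the second 16 dpc liver, without which it was 1.89 (adjusted p = 0.0430), and without the second NP liver it was 3.52 and no longer passed (adjusted p = 0.0599). Nor did it pass with edgeR on the compared groups alone (3.78, adjusted p = 0.0676). Markers of skeletal muscle and fat, tissues rich in Pdk4, were near 0. The summed CPM of 5 muscle markers was 0.446 to 0.801 in AAV8-null livers at 16 dpc, with 4 of the 5 at 0 in all 3, and that of 5 adipocyte markers at most 0.167, with 3 of the 5 at 0. Of 5 red blood cell markers 2 rose from NP to 16 dpc with AAV8-null, beside 3.71% of all genes, and all 5 were higher (median log2 fold change 0.93). Their summed CPM was 49.6 to 99.7 in NP livers and 109.4 to 169.4 at 16 dpc with AAV8-null. With AAV8-p21 at 16 dpc it was 123.9 to 167.1. Of 5 stellate cell markers 1 fell, beside 2.82% of all genes, and 4 were higher (median log2 fold change 0.098). Their summed CPM was 294.8 to 360.3 in NP livers and 306.4 to 424.9 at 16 dpc with AAV8-null. The part of these cell types in the Pdk4 rise was not tested.

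Pdk2, the other main liver kinase, went the other way. It stood at 67.9, 83.4 and 77.7 CPM in NP livers. The 8 dpc livers had 87.5, 71.6 and 54.7 CPM and the 16 dpc livers 40.6, 34.7 and 40.3 CPM with AAV8-null. The latter were all below every other liver of the study. The log2 fold change from NP was −0.99 ± 0.21, that is 1.98-fold lower (adjusted p = 0.0124, edgeR). It missed the threshold without the second NP liver (−0.92, adjusted p = 0.0564) and without the second 16 dpc liver (−0.91, adjusted p = 0.0545). An antisense transcript, Gm11513, lies inside Pdk2, and since no source used here states whether the counting used strand, its reads cannot be told apart from those of Pdk2.

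Pdk1, a kinase induced in low oxygen, stood at 69.3, 83.8 and 97.3 CPM in NP livers and at 69.1, 91.6 and 44.8 CPM at 16 dpc with AAV8-null, so the groups overlapped. Its log2 fold change was −0.28 with a 95% interval of −0.89 to 0.32 (adjusted p = 0.597, edgeR). Pdk3, a kinase of testis and other tissues, was close to the limit of detection, with 3 to 18 counts per library. It was at 0.416, 0.305 and 0.280 CPM in NP livers and at 0.357, 1.5 and 1.16 CPM at 16 dpc, a log2 fold change of 1.58 with an interval of 0.30 to 2.85 that did not pass (adjusted p = 0.124, edgeR). Without the first 16 dpc liver it was 1.97 and passed (adjusted p = 0.0488), so a rise of Pdk3 beside that of Pdk4 could not be settled at these counts.

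**Figure D1:**
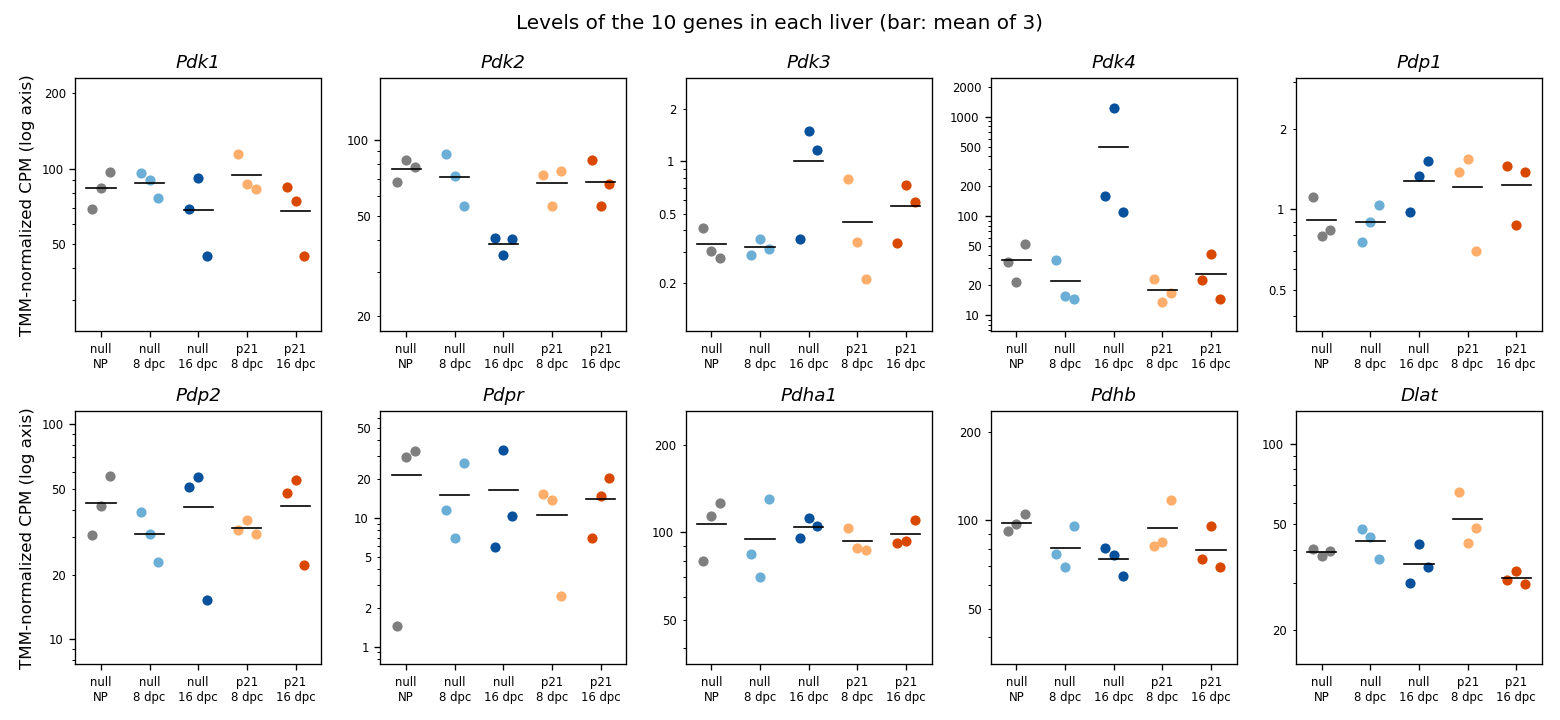
Level of each of the 10 genes in each of the 15 livers, as TMM-normalized CPM on a log axis, with 1 point per liver and a bar at the mean of each group of 3. The AAV8-null livers at 16 dpc hold the 3 highest Pdk4 values, 109.7 to 1222 CPM, and the 3 lowest Pdk2 values, 34.7 to 40.6 CPM.

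Phosphatase transcripts gave no call. Pdp2, the more abundant catalytic subunit per kilobase of exon, stood at 30.5, 41.8 and 57.3 CPM in NP livers and at 51.2, 56.7 and 15.3 CPM at 16 dpc with AAV8-null. One 16 dpc liver was below all NP livers and the other values overlapped (log2 fold change −0.07, 95% interval −0.999 to 0.85). Pdp1, the calcium-stimulated phosphatase of muscle, was scarce at 10 to 28 counts per library, and its log2 fold change was 0.48 (interval −0.34 to 1.31). Pdpr, which holds Pdp1 back, spread more within groups than any other member save Pdk4 at 16 dpc. It stood at 1.45, 29.5 and 33.0 CPM in NP livers, a 22.7-fold range, and at 5.88, 33.5 and 10.2 CPM at 16 dpc (log2 fold change −0.37, interval −2.34 to 1.61).

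None of the enzyme subunits passed the test. Pdha1, the catalytic alpha subunit that the kinases phosphorylate, stood at 80.0, 114 and 126 CPM in NP livers and at 95.4, 112 and 106 CPM at 16 dpc with AAV8-null, with a log2 fold change of −0.03 (95% interval −0.54 to 0.47). Pdhb, its beta partner, stood at 91.8, 97.2 and 105 CPM in NP livers and at 80.3, 76.0 and 64.5 CPM at 16 dpc. The Pdhb groups did not overlap, as for 12.5% of all genes in that direction, but the difference of −0.41 (interval −0.85 to 0.03) did not pass (adjusted p = 0.246, edgeR). Dlat, the acetyltransferase core to which the kinases bind, stood at 40.1, 37.8 and 39.6 CPM in NP livers and at 30.1, 41.9 and 34.4 CPM at 16 dpc (log2 fold change −0.14, interval −0.56 to 0.27). The upper ends of the 95% intervals of the other members save Pdk3 lay below the lower end for Pdk4, 2.01.

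These changes are relative to the bulk of genes. Scaling by library size alone, an alternative chosen after seeing the data, lowered the median gene by 0.68 on the log2 scale between NP and 16 dpc. On that scale Pdk4 still rose (3.03) while Pdk1 (−0.996), Pdk2 (−1.66), Pdha1 (−0.72), Pdhb (−1.10) and Dlat (−0.82) passed as lower. The opposite directions of Pdk4 and Pdk2 held under both scalings.

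Ratios within a library need no scaling between libraries other than through the pseudocount in CPM, and 9 of them set Pdk4 against each other member. From NP to 16 dpc with AAV8-null all 9 mean log2 ratios were higher, by 2.24 against Pdk3 up to 3.98 against Pdk2. In 7 of the 9 every 16 dpc liver lay above every NP liver, for which the exact two-sided permutation p is 0.1, the smallest that 3 against 3 allow (0.129 adjusted over the 9 pairs). The ratios to Pdk3 and Pdpr overlapped (exact permutation p = 0.2). Pdk3, at 0.280 to 0.416 CPM in NP livers, lay below the pseudocount of 0.5 CPM, so its ratio mostly followed the level of Pdk4. With a pseudocount of 2 CPM the Pdk3 ratio no longer overlapped (2.61, exact permutation p = 0.1). A larger pseudocount weakens the part of Pdk3 further, so this says nothing more about Pdk3. Without the second 16 dpc liver the difference was 1.42 against Pdk3 (exact permutation p = 0.3), 1.65 against Pdp1 (0.2) and 2.01 against Pdha1 (0.1).

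**Figure D2:**
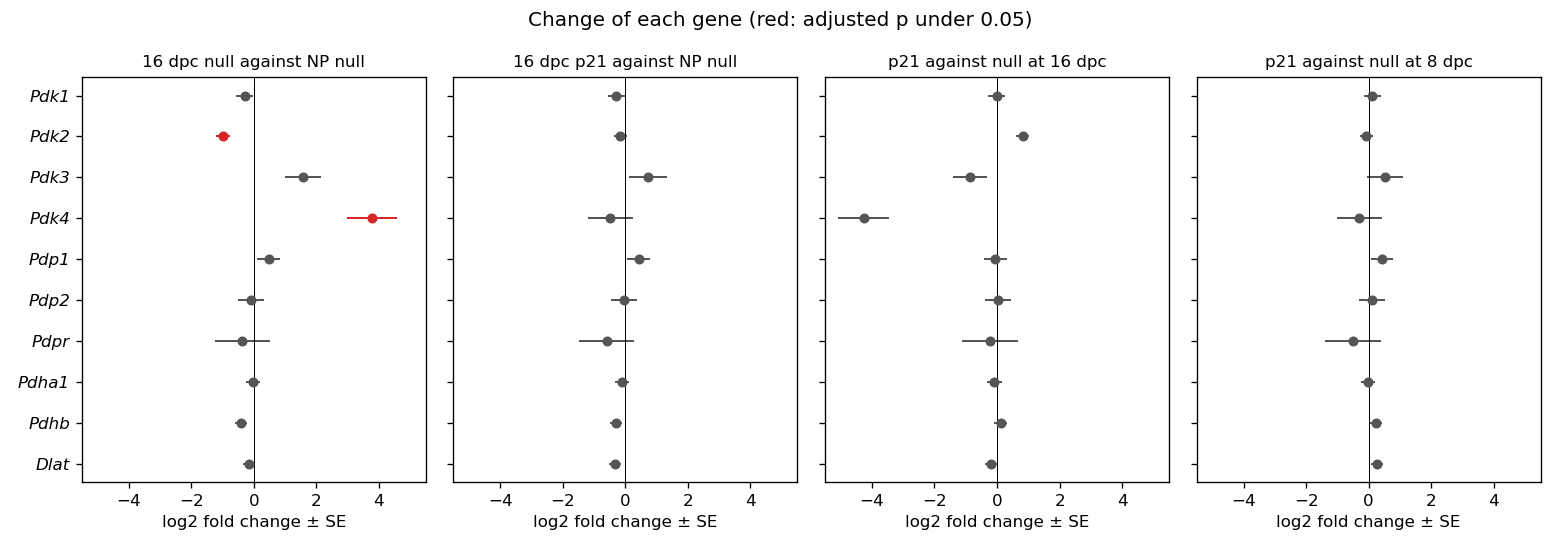
Log2 fold change of each gene with its SE from edgeR's fit in 4 comparisons, with genes past an adjusted p-value of 0.05 in red. Only Pdk4 (3.78) and Pdk2 (−0.99) are red, and only in AAV8-null livers at 16 dpc against NP.

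Per kilobase of exon, the kinase pool changed its main member. Pdk2 made up 53.7% ± 6.77 (SD, n = 3) of kinase transcripts in NP livers and 56.1% ± 1.93 at 8 dpc, and 15.8% ± 11.6 at 16 dpc with AAV8-null. Pdk4 made up 24.3%, 14.3% and 28.7% in the 3 NP livers and 67.5%, 93.7% and 62.3% in the 3 livers at 16 dpc. The mean Pdk4 share was thus 22.4% ± 7.36 and 74.5% ± 16.9, a difference of 52.1 percentage points without overlap (exact two-sided permutation p = 0.1). Pdk1 went from 23.6% to 9.28% and Pdk3 stayed under 1% in every liver. Leaving Pdk4 out, the kinases summed to 35.0 ± 3.85 CPM per kilobase in NP livers and 21.4 ± 2.23 at 16 dpc, so the rest of the pool was lower. The whole pool was 40.3, 43.5 and 52.1 CPM per kilobase in NP livers and 67.2, 371 and 50.2 at 16 dpc, and these overlapped.

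**Figure D3:**
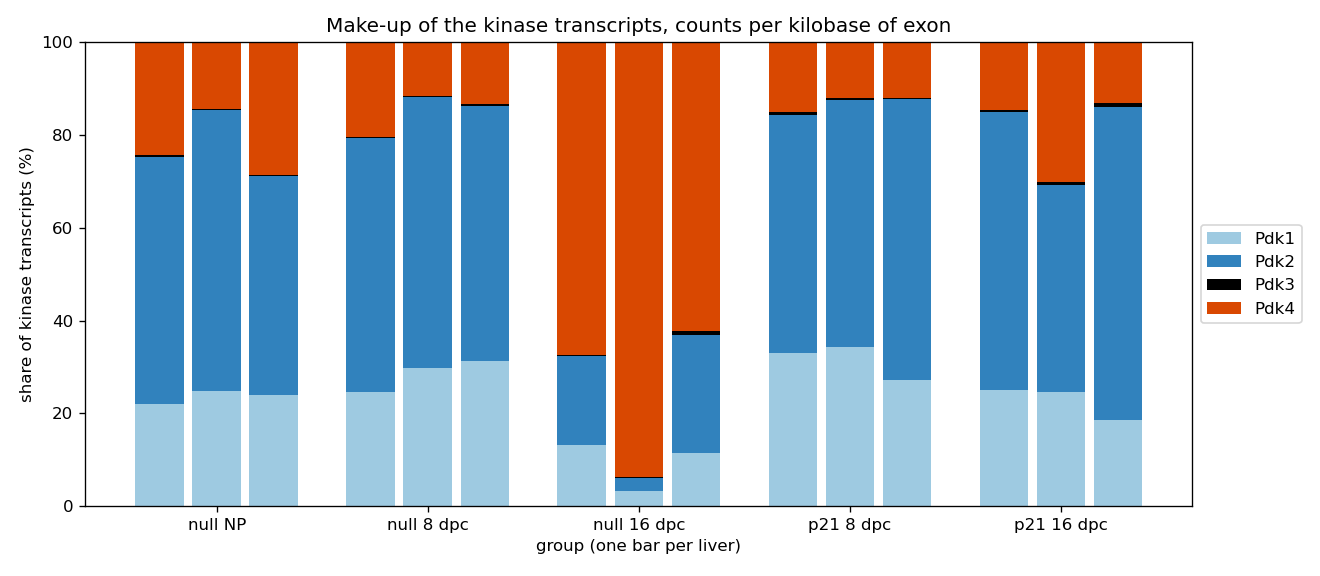
Share of Pdk1, Pdk2, Pdk3 and Pdk4 in the kinase transcripts of each liver, in percent of counts per kilobase of exon, with 1 bar per liver. Pdk4 takes 62.3% to 93.7% in the AAV8-null livers at 16 dpc and at most 30.1% in each of the other 12.

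Against the phosphatases, the kinases summed to 7.20, 5.78 and 5.09 times the transcripts of Pdp1 and Pdp2 per kilobase in NP livers and to 7.30, 36.2 and 16.6 times at 16 dpc with AAV8-null. The groups did not overlap, though the lowest 16 dpc liver exceeded the highest NP liver by little (log2 difference 1.46, exact permutation p = 0.1). They overlapped with raw counts (1.29) or coding length (1.31) in place of exon length (exact permutation p = 0.2 for both), and the difference was 0.885 without the second 16 dpc liver. In order of level per kilobase, Pdha1, Pdhb and Pdk2 led in NP livers with overlapping ranges, and Pdk4 ranked 5 of 10 at 10.3 CPM per kilobase. At 16 dpc with AAV8-null Pdk4 ranked 1 at 31.3 to 348 CPM per kilobase, above the range of Pdha1 (25.5 to 29.97), and Pdk2 ranked 4 at 12.2. Pdp1 and Pdk3 were the lowest pair in all 5 groups.

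Midgestation gave no call. At 8 dpc with AAV8-null against NP 0 of the 10 members passed, as did 0 of the 12172 genes (0%; 6.60% had an unadjusted p-value under 0.05, and 0 of the members). DESeq2 called 66 genes and 0 members, and limma voom with sample weights 1850 genes and 1 member, Pdha1 (−0.51, adjusted p = 0.0301). Pdk4 at 8 dpc had a log2 fold change of −0.71 with a 95% interval of −2.32 to 0.89, and Pdk2 one of −0.10 (−0.56 to 0.36). The Pdk4 share of kinase transcripts was 15.04% ± 4.70 at 8 dpc, overlapping that of NP livers (exact permutation p = 0.2).

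From 8 dpc to 16 dpc with AAV8-null the members' pattern was that of NP to 16 dpc, against which it shares the 16 dpc livers. Of all genes 6.87% passed, and of the members Pdk4 rose (log2 fold change 4.49 ± 0.82, adjusted p = 0.00558, edgeR) and Pdk2 fell (−0.89 ± 0.21, adjusted p = 0.0233). The Pdk4 call held with each library left out, with a size of 2.60 without the second 16 dpc liver. Both calls were lost with edgeR on the compared groups alone (Pdk4 4.45, adjusted p = 0.0555, and Pdk2 −0.91, 0.0684). The Pdk2 call was also lost without the first 8 dpc liver (−0.71, adjusted p = 0.108), the second 8 dpc liver (−0.89, 0.0766), the second 16 dpc liver (−0.82, 0.0965) or the third 16 dpc liver (−0.92, 0.0573). Pdk3 had a log2 fold change of 1.63 (adjusted p = 0.0960), and passed without the first 16 dpc liver (2.03, adjusted p = 0.0399). All 5 sinusoidal endothelial markers were higher at 16 dpc (median log2 fold change 0.80), as were 4 of 5 stellate cell markers (0.75), with 1 of each past the test. Kupffer cell and cholangiocyte markers had medians of −0.25 and −0.80, with 0 past the test. The part of these cell types in the Pdk4 rise was not tested.

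With AAV8-p21, Pdk4 and Pdk2 at 16 dpc overlapped the NP livers. The 8 dpc livers had 23.4, 13.7 and 16.6 CPM of Pdk4 and the 16 dpc livers 22.4, 40.9 and 14.4 CPM. Against NP, 3.81% of all genes passed at 16 dpc with AAV8-p21 and 0 of the members in edgeR (0 with an unadjusted p-value under 0.05, and 0 in DESeq2). The log2 fold change was −0.48 for Pdk4 (95% interval −2.08 to 1.12) and −0.17 for Pdk2 (−0.63 to 0.30). With AAV8-null the interval for Pdk4 was 2.01 to 5.55, from the same NP livers. Dlat was the one member whose groups did not overlap, at 30.8, 33.4 and 29.7 CPM with AAV8-p21 at 16 dpc (log2 fold change −0.32, adjusted p = 0.439, edgeR), as for 20.2% of all genes in either direction.

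Comparing AAV8-p21 with AAV8-null directly at 16 dpc, 0 of the 10 members and 0.0739% of all genes passed in edgeR (2 members and 9.77% of all genes had an unadjusted p-value under 0.05). Pdk4 was lower in all 3 AAV8-p21 livers than in any AAV8-null liver. Its log2 fold change was −4.26 ± 0.81 (95% interval −6.07 to −2.45) and missed the threshold (adjusted p = 0.0623, edgeR). It passed in DESeq2's Wald test (adjusted p = 0.000153 on all 15 livers and 0.0127 on the compared groups), without the filter on low counts (0.0287), and without the first AAV8-null liver (−4.68, 0.0478) or the third (−4.74, 0.0332). It did not pass with edgeR on the compared groups alone (adjusted p = 0.297), with limma voom (−2.83, 0.0568), without the second AAV8-null liver (−2.37, 0.121) or without any 1 of the AAV8-p21 livers (0.0901 to 0.361). Pdk2 was higher in all 3 AAV8-p21 livers, at 82.8, 54.7 and 66.8 CPM (log2 fold change 0.82 ± 0.21, adjusted p = 0.164, edgeR; 0.0285 with DESeq2 on all 15 livers and 0.0656 on the compared groups). These were 2 of 10 members without overlap, beside 13.7% of all genes, and the other 8 overlapped.

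All 9 log2 ratios of Pdk4 to another member were lower with AAV8-p21 than with AAV8-null at 16 dpc, without overlap, by 3.07 against Pdk3 up to 4.32 against Pdk2 (exact permutation p = 0.1, 0.1 adjusted over the 9 pairs). The Pdk4 share of kinase transcripts was 14.6%, 30.1% and 13.1% in the AAV8-p21 livers, 55.2 percentage points below AAV8-null (exact permutation p = 0.1), and Pdk2 made up 57.4% ± 11.7. The kinase to phosphatase ratio was 5.01, 3.95 and 7.45 and overlapped that of AAV8-null livers (exact permutation p = 0.2).

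At 8 dpc no member differed between the vectors beyond the threshold, with 0 of 10 members (0 with an unadjusted p-value under 0.05, and 0 in DESeq2) and 0.0246% of all genes past the test in edgeR. Pdk4 differed by −0.30 on the log2 scale (95% interval −1.91 to 1.30) and its share of kinase transcripts by −2.03 percentage points (exact permutation p = 0.7). Whether the effect of the vector differed between stages was tested as an interaction. In edgeR it was −3.96 ± 1.05 for Pdk4 (unadjusted p = 0.00195) and 0.90 ± 0.30 for Pdk2 (unadjusted p = 0.00835), and neither passed adjustment (adjusted p = 0.99997 for both), as 0% of all genes did (3.09% had an unadjusted p-value under 0.05). For the Pdk4 share, the effect of the vector differed by −53.2 percentage points between 16 dpc and 8 dpc (exact permutation p = 0.07 on exchanging vectors within each stage, with 0.005 the smallest possible), which missed the threshold.

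Within the AAV8-p21 livers, Dlat fell from 8 dpc to 16 dpc, where 3.32% of all genes passed and 1 of the 10 members. It stood at 66.0, 42.5 and 48.1 CPM at 8 dpc, and all 3 livers at 16 dpc were lower, as for 11.4% of all genes (log2 fold change −0.74 ± 0.19, adjusted p = 0.0456, edgeR). The call held in only 1 of the 6 fits that left out a library. Without the first or the third 8 dpc liver it was −0.53 (adjusted p = 0.239) and −0.78 (0.0523), and without each 16 dpc liver between −0.70 and −0.78 (0.109 to 0.137). Pdk4 did not pass (0.53, 95% interval −1.08 to 2.14).

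The rest of the pathway gave few calls, in lists written with earlier results of these data known. The other subunits of the complex, Dld and Pdhx, which supply its lipoamide dehydrogenase and its binding protein, did not pass in any of the 8 comparisons. Between NP and 16 dpc with AAV8-null, 0 of 2 mitochondrial pyruvate carriers, 0 of 6 genes of lipoate and thiamine supply, 0 of 8 genes of the related 2-oxoacid dehydrogenases with their kinase Bckdk and phosphatase Ppm1k, and 0 of 7 acetyl-CoA users passed. Beside 2.82% of all genes that fell, 2 of 11 other enzymes around pyruvate and phosphoenolpyruvate fell. They were Gpt, alanine aminotransferase (log2 fold change −1.08, adjusted p = 0.00300, edgeR), and Pck2, the mitochondrial phosphoenolpyruvate carboxykinase (−1.11, 0.0215). From 8 dpc to 16 dpc with AAV8-null, where 6.87% of all genes passed, Gpt (−0.82, adjusted p = 0.0176, edgeR) and Pck2 (−1.59, 0.00279) fell, again 2 of 11. Of 2 carrier genes 1 rose, Mpc1, a subunit of the pyruvate carrier, by 0.66 (adjusted p = 0.0327). Of 7 acetyl-CoA users 1 rose, Acat1, which condenses acetyl-CoA, by 1.08 (0.0295).

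Other targets of the pathways that induce Pdk4 were set beside it. Of 16 fasting and PPAR-alpha targets, 13 were higher at 16 dpc than in NP livers with AAV8-null, with a median log2 fold change of 0.74 beside −0.03 over all genes tested. Only 1 passed, the lipid droplet gene Plin2 (2.55, adjusted p = 0.0113), beside 6.52% of all genes. Their mean log2 CPM was 9.69, 10.1 and 9.82 in these livers, highest in the liver with most Pdk4, and 8.90 to 9.25 in NP livers. At 8 dpc with AAV8-null it was 8.30, 7.87 and 9.40, the last in a liver with Pdk4 at 14.6 CPM. With AAV8-p21 at 16 dpc it was 8.01, 8.67 and 9.64, and all 16 genes were lower than with AAV8-null with 0 past the test. The median difference was −0.71, and that of all genes was close to 0. The AAV8-p21 liver with 9.64 also had the lowest Pdk4 of its group, at 14.4 CPM. The part of fasting or PPAR-alpha in the Pdk4 differences was not tested.

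Among 9 FOXO1 and glucocorticoid targets 3 rose and 1 fell from NP to 16 dpc with AAV8-null, beside 3.71% and 2.82% of all genes. The risers were Igfbp1, an insulin-repressed binding protein of insulin-like growth factors (log2 fold change 3.64, adjusted p = 0.000365), the kinase Sgk1 (3.36, 0.000692) and the insulin receptor substrate Irs2 (1.55, 0.0355), and Tsc22d3, a glucocorticoid-induced leucine zipper gene, fell (−2.10, 0.00895). With AAV8-p21, Igfbp1 rose from NP to 16 dpc as well (1.93, adjusted p = 0.0196), where Pdk4 had −0.48. Between the vectors at 16 dpc 0 of the 9 passed in edgeR (smallest adjusted p = 0.112). Igfbp1 stood at 981 to 1935 CPM with AAV8-null and 345 to 643 CPM with AAV8-p21, and Sgk1 at 168 to 263 and 33.0 to 82.3 CPM, both without overlap, as for 13.7% of all genes in either direction. Of 10 regulators of Pdk4 transcription 1 fell between NP and 16 dpc with AAV8-null, the nuclear receptor Esrra (−0.81, adjusted p = 0.0181), and 0 rose. Ppara and Foxo1 had log2 fold changes of −0.23 and 0.16 and did not pass. The part of these regulators in the Pdk4 differences was not tested.

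Clock genes, which follow the hour of sampling, were set beside these differences. In edgeR 0 of 10 passed the test between the vectors at 16 dpc (median log2 fold change 1.17, smallest adjusted p = 0.244), and 0 of 10 between NP and 16 dpc with AAV8-null (median −1.43, smallest adjusted p = 0.0660). A clock score was taken as the average log2 level of 3 genes of one phase (Arntl, Clock and Npas2) less that of 7 genes of the opposite phase. It was 2.44, −1.80 and 1.82 in the AAV8-null livers at 16 dpc, with −1.80 in the liver that had most Pdk4. In AAV8-p21 livers at 16 dpc the score was −5.16 to −2.66, without overlap. Arntl, which encodes BMAL1, stood at 10.2 to 23.3 CPM in the former and at 0.511 to 2.91 CPM in the latter. The NP livers had 0.54, −4.35 and −4.57, so that 1 of the 3 lay within the range of the AAV8-null livers at 16 dpc and the others below it. Across all 15 livers the score and the log2 level of Pdk4 had a Pearson correlation of 0.05, and those of the other members lay between −0.43 and 0.42, as a description over livers of 5 groups. The part of the clock genes, or of the hour they follow, in the Pdk4 differences between vectors and between NP and 16 dpc was not tested.

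Across the 15 livers Pdk4 and Pdk2 had a Pearson correlation of −0.72 but a Spearman correlation of −0.30, and the 3 AAV8-null livers at 16 dpc made up 1 end of it. Pdk1 and Dlat had 0.69 (Spearman 0.69), and Pdpr and Pdha1 0.74 (0.80). The last pair moved with the level of long transcripts, though their own exons total 5028 bases in Pdpr and 3734 in Pdha1. The mean level of the 5% of genes with the longest exons, over 12501 bases in total, minus that of all genes, had a correlation of 0.97 with Pdpr and 0.84 with Pdha1, and between −0.30 and 0.42 with the other 8 members. The NP liver with Pdpr at 1.45 CPM and the AAV8-p21 liver at 8 dpc with 2.45 CPM were the lowest on both measures. The part of this in the spread of Pdpr was not tested. Pdpr also overlaps a transcript on the opposite strand, 9430091E24Rik, and Pdha1 overlaps the end of Map3k15.

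**Figure D4:**
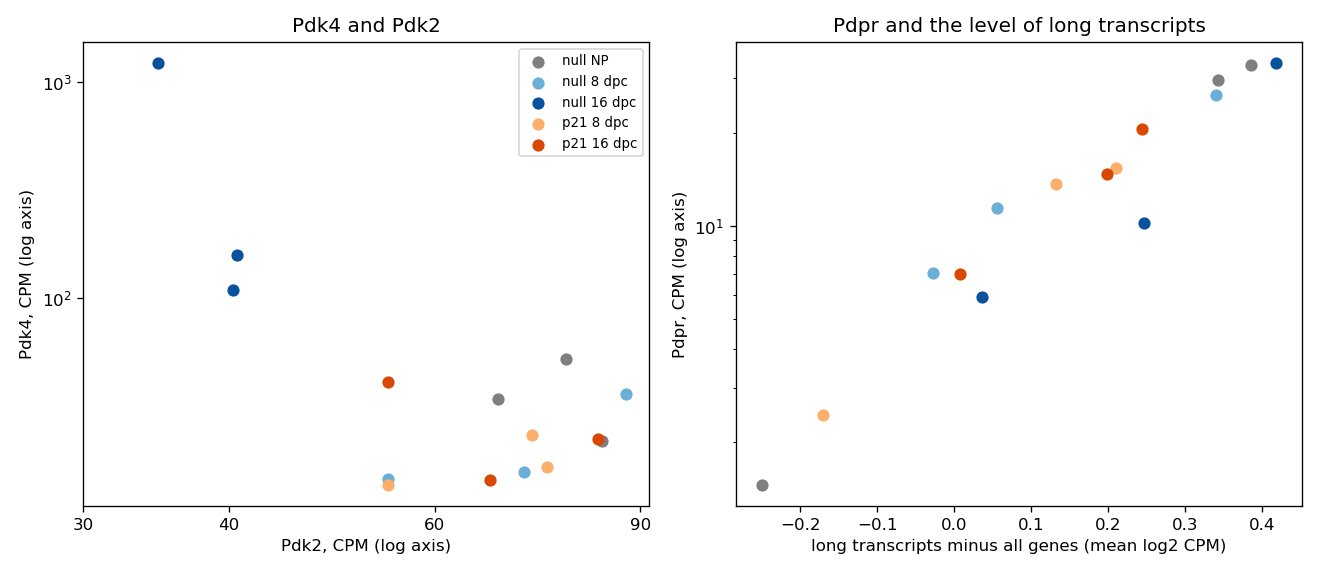
Left, Pdk4 against Pdk2 in each of the 15 livers, in CPM on log axes. Right, Pdpr in CPM on a log axis against the mean log2 CPM of long transcripts minus that of all genes; the 3 AAV8-null livers at 16 dpc stand apart on the left, while Pdpr follows the long transcripts in all groups with a correlation of 0.97.

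By the same measure over the 15 livers, genes among the 8 most like Pdk4, of all genes with a mean log2 CPM above 1, were Caln1 (0.85), Cpeb2 (0.84), Arl4a (0.84), Slc25a42 (0.83), Ddx28 (0.82) and Man1a (0.82). Those most like Pdk2 were Xrcc6 (0.90), Slc25a11 (0.89) and Izumo4 (0.88), and those most like Pdk1 were Sdha (0.89), Aldh4a1 (0.89) and Cd5l (0.88). For Pdpr they were Sbf2, Ash1l and Kif3b (0.97 to 0.98). The exons of Sbf2 and Ash1l total 14783 and 14838 bases, past the limit for long transcripts, and those of Pdpr 5028. These are the highest values of a search over many genes, which finds high values by its size.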

How the data were processed

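RNA from 15 mouse livers was sequenced by the authors as stranded mRNA libraries with single-end reads. Per the submitters' processing notes and the paper's methods, the authors trimmed with cutadapt 1.14, aligned to mm10 with HISAT2 2.1.0 and counted with HTSeq 0.12.4. The deposited values are raw counts per gene, and a strand setting of the counting is not given in the sources used here.

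Counts were tested with edgeR 4.0.16 in R 4.3.3 (TMM, filterByExpr with a minimum count of 10, 12172 genes, quasi-likelihood test in one fit of 15 libraries with 10 residual degrees of freedom, Benjamini-Hochberg adjustment over all genes tested, threshold 0.05). Alternatives used DESeq2 1.42.0 and limma 3.58.1. Shares and ratios within a library use counts per kilobase of GENCODE M21 exons, a pseudocount of 0.5 CPM for log ratios between members, and exact two-sided permutation tests. Correlations use log2 CPM with a prior count of 2. Figures were drawn with matplotlib 3.10.9.

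The members, lists and tests were chosen with earlier results of these data known. Named genes are the 10 members, at most 4 genes of each list with the smallest p past the test per comparison, Ppara, Foxo1, Dld, Pdhx, Bckdk, Ppm1k, the clock gene Arntl and the genes most like a member. Ppara and Foxo1 were named after their values were seen. Outside this rule, Cdkn1a was named as the gene the vector carries, and Gm11513, 9430091E24Rik and Map3k15 as genes that overlap a member. Some genes that the rule picks are not reported here. The table numbers the AAV8-p21 livers at 16 dpc differently from the labels, so these carry no replicate number. P-values measure the spread between mice, and the depth above limits Pdk3 and Pdp1.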

Additional observations from a re-analysis of the deposited data

How the results depend on the processing

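The count of members past the test between NP and 16 dpc with AAV8-null, 2 as reported, was 1 when a log2 fold change over 1 was required as well, 1 with edgeR on the compared groups alone and 6 with library size alone. Between 8 dpc and 16 dpc with AAV8-null it went from 2 to 1, 0 and 5 under the same settings. For 8 dpc against NP it went from 0 to 1 with limma voom (Pdha1). For AAV8-p21 against AAV8-null at 16 dpc it went from 0 to 1 without a filter, 2 with DESeq2 on all 15 libraries and 1 with DESeq2 on the compared groups. For AAV8-p21 at 16 dpc against NP it went from 0 to 5 with library size alone. Within AAV8-p21 it went from 1 to 0 with the fold threshold, DESeq2 size factors, no filter or edgeR on the compared groups alone, stayed at 1 with DESeq2 on those groups, and went to 3 with library size alone. With edgeR on the compared groups alone Pdk4 kept its size but not its call (NP to 16 dpc 3.78, adjusted p = 0.0676, and 8 dpc to 16 dpc 4.45, 0.0555), while DESeq2 on the compared groups kept both calls (3.79, 0.00763 and 4.49, 0.00117). The cause of these changes was not tested, other than the shift of the median gene under library size alone.

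With a replicate block on the 12 libraries whose numbers the labels give, 1 member passed between NP and 16 dpc (Pdk2; Pdk4 3.46, adjusted p = 0.0557), against 2 without the block. Same-numbered livers are different mice, and of 18 pairs of them 7 had a correlation of their deviations over 0.1 (−0.53 to 0.45).

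Leaving out 1 library gave 0 to 3 members between NP and 16 dpc, 1 to 3 between 8 dpc and 16 dpc, 0 to 1 for AAV8-p21 against AAV8-null at 16 dpc and 0 to 1 within AAV8-p21. Small differences changed sign without a library. The Pdk4 share between vectors at 8 dpc ranged from −3.80 to 0.63 percentage points and against NP for AAV8-p21 at 16 dpc from −8.52 to 0.0100. The log2 kinase to phosphatase ratio ranged from −0.29 to 0.0122 and −0.42 to 0.0353 in the same comparisons. Over the members' fold changes in all alternatives, 1098 of 1245 values kept direction and side of the threshold, 19 lost a call, 23 gained one, and 105 changed sign without a call in either fit.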
